A study of Danio rerio with 21 samples.

Results

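The genes described here are those of the Toll-like receptor and NF-kB pathway in zebrafish (Danio rerio) blood and immune cells. They were chosen by symbol: every Toll-like receptor gene (tlr followed by a digit), every irak, traf, nfkb, rel and ikbk gene, and the named pathway genes myd88, tirap, ticam1, unc93b1, tollip, map3k7, tab1, tab2 and tnfaip3. The rule found 60 of the 27758 features measured. They comprised 22 receptors, 5 adaptors or chaperones, 4 features of the IRAK group, 11 of the TRAF group, 6 of the TAK1 and IKK kinase complexes, 5 NF-kB subunits and 7 inhibitors. The symbol tlr7 stood on 2 features. ENSDARG00000068812 is TLR7 in the reference name table as well, whereas the same table calls ENSDARG00000075685 FRMPD4, so that the levels are given by identifier. The symbols tlr19 and tlr20.3 also stood on 2 features each. Of the 60, irak1bp1, traf3ip1, traf3ip2l and nfkbil1 were taken in only because their symbols begin like those of the pathway.

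The libraries came from single sorted cells positive for mCherry, a heritable label set during development and meant to mark the descendants of blood stem and progenitor cells. There were 21, with 1 library per group. The sorted cells also held cells named mesenchymal, neural, endothelial or epithelial, such as 2110 mesenchymal and 840 neural cells in untreated slc24a5 crispants. The descent of those cells was not tested. In the larval tracing set, 9 libraries of whole larvae carried a label set at 1 day post fertilization (dpf; early), 2 dpf (mid) or 3 dpf (late), and were sampled on the day that followed the labelling, at 6 dpf or at 10 dpf. In the crispant set, 4 libraries were taken at 8 dpf after labelling at 1 dpf. The larvae were mosaic mutants of slc24a5, a pigmentation gene that served as the control, or of rag1, a recombinase needed for antigen receptor genes, and were untreated or given 25 µM R848 at 6 dpf. The adult set covered kidney marrow, intestine, thymus and tessellated lymphoid network (TLN) of fish aged 4 months, 8 libraries in which the label was either early or late. The promoter behind the label and the number of fish pooled per library are not given in the sources used here.

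Toll-like receptors recognise molecules of microbes at the cell surface or in endosomes. Most signal through the adaptor Myd88 to the IRAK kinases, Traf6, the TAK1 complex and the IKK complex, which frees NF-kB subunits from their IkB inhibitors, and the freed subunits in turn induce the genes of several of those inhibitors. R848, also called resiquimod, is a small molecule that activates TLR7 and TLR8 in mammals, which sense single-stranded RNA in endosomes and need the chaperone UNC93B1 to get there. Macrophages and neutrophils are classical users of the pathway.

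After filters, 185887 of 201364 barcodes remained. Larval libraries held 8303823 to 47512292 UMIs (counted messenger RNA molecules) and 769 to 6994 cells, crispant libraries 75637505 to 150042529 UMIs and 8034 to 14819 cells, and adult libraries 10799061 to 140809213 UMIs and 1775 to 25549 cells. Cells were clustered without the 60 genes and named from marker lists. Of the 13 macrophage markers listed, 11 were in the features. Summed, they reached 6793 to 18104 counts in 1000000 UMIs of the class (CPM) in the macrophages of the 4 crispant libraries. In larval libraries with at least 20 macrophages they were lower, from 686 CPM (mid label, 6 dpf) to 5481 CPM (late label, 4 dpf). Neutrophils of the first of these libraries had 201 CPM. The rag1 transcript, in the T and NK/ILC cells (T lineage, natural killer and innate lymphoid cells together), stood at 64.1 CPM in untreated slc24a5 and 16.3 CPM in untreated rag1 crispants, and at 32.5 and 9.61 CPM with R848. The slc24a5 transcript gave at most 1 UMI there, and 3' counts say nothing of the edit itself. The 2 libraries that shared most barcodes, adult kidney marrow after the early and the late label, shared 166, or 0.738% of the smaller. The highest share of the smaller library was 0.865%, for adult kidney marrow and intestine after the early label (67 barcodes).

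In larvae the receptor tlr5b was abundant in neutrophils and macrophages, while the other receptors had a median of at most 6.93 CPM in any class. The inhibitors nfkbiaa, nfkbiab and nfkbie and the subunits nfkb1, nfkb2, rel and relb had median levels of 60.3 to 832 CPM in the class where each was highest, whereas nfkbiz, nfkbil1 and the subunit rela reached 3.74, 3.49 and 9.90 CPM at most. Medians were taken over the 7 to 9 larval libraries with at least 20 cells of the class, 7 for macrophages and for neutrophils. So measured, 48 of the 60 genes reached a median of 1 CPM in at least 1 of 6 cell classes, and 12 stayed below it in all. The class with the highest median was the T and NK/ILC class for 14 of the 48, macrophages for 12, thrombocytes for 11, neutrophils for 8, erythroid cells for 2 and HSPCs for 1. For most genes the ranges over libraries overlapped between classes. The exceptions were tlr18 and tlr21 in macrophages, and nfkbib and traf4a in thrombocytes, where the lowest library lay above the highest of any other class. Neither count was made over all genes, so whether the pathway differs from other genes in this was not tested.

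**Figure D1:**
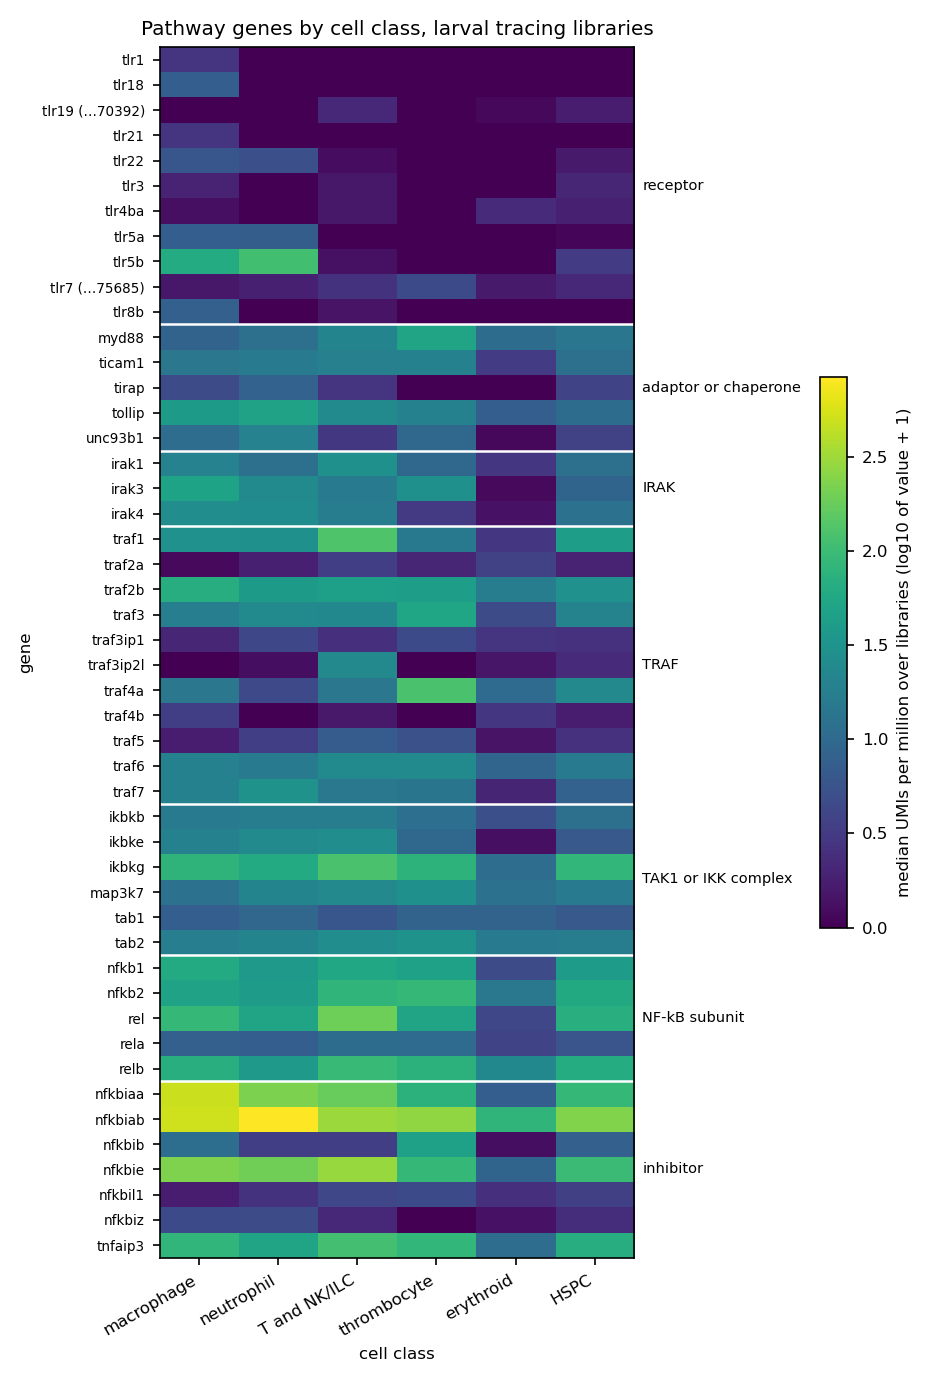
Median CPM over the larval libraries (colour, as log10 of CPM + 1) of the 48 genes that reached 1 CPM, by cell class (columns), with genes ordered by role (rows). Receptors other than tlr5b are faint in every column, while nfkbiaa, nfkbiab and nfkbie are bright in every column apart from erythroid cells, where nfkbiaa and nfkbie stand at 6.48 and 7.69 CPM.

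Among the receptors, tlr5b, the receptor of bacterial flagellin in fish as in mammals, was the most abundant. Its CPM ran from 48.3 to 396 with a median of 107 in neutrophils, and from 34.0 to 105 with a median of 61.0 in macrophages. In T and NK/ILC cells its median was 0.347 CPM. The fish receptor tlr18 ranged from 1.82 to 27.6 CPM in macrophages, with a median of 6.46, and tlr22 from 2.73 to 6.29 CPM. The macrophage medians of tlr1, a partner of tlr2 in binding lipopeptides, and of tlr21, a receptor of DNA in birds and fish, were 1.78 and 1.72 CPM. These 3 receptors, tlr18, tlr1 and tlr21, had a median of 0 in each of the other 5 classes. Some receptors were highest outside the myeloid classes, with overlapping ranges: the tlr19 feature ENSDARG00000070392 in T and NK/ILC cells (median 1.1 CPM), tlr4ba in erythroid cells (1.28), tlr3 in HSPCs (1.07) and the tlr7 feature ENSDARG00000075685 in thrombocytes (3.49).

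Downstream, the inhibitors led. In larval macrophages nfkbiab ranged from 428 to 857 CPM, nfkbiaa from 182 to 748 and nfkbie from 195 to 324; these are IkB proteins of the alpha and epsilon type. The median of nfkbiab was higher still in neutrophils, at 832 CPM. The T and NK/ILC class had the highest medians of rel, the c-Rel subunit, at 187 CPM, of traf1 at 130 CPM and of ikbkg, the regulatory subunit of the IKK complex, at 119 CPM. Thrombocytes stood out for traf4a, with 68.7 to 178 CPM and a median of 120, and for nfkbib, an IkB of the beta type, with 29.8 to 84.7 CPM and a median of 45.3. They also had the highest median of myd88, at 49.1 CPM against 7.55 in macrophages.

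Macrophages and neutrophils of the same 7 libraries were compared with edgeR's quasi-likelihood test on UMI sums with library as a block (1 sum per class and library, Benjamini-Hochberg adjusted p under 0.05 over all genes tested). Of the 40 genes of the pathway tested, 15 were higher and 3 lower in macrophages, against 20% of all genes higher and 17.5% lower. The first group held receptors that gave almost no UMIs in neutrophils. In pooled UMIs, tlr8b gave 154 in macrophages and 2 in neutrophils, a ratio per total of 38.4 with a 95% counting interval of 10.5 to 320. For tlr18 the counts were 120 and 2, for tlr21 they were 55 and 1, and for tlr1 they were 53 and 2. With so few neutrophil UMIs, tlr8b, tlr18, tlr21 and tlr1 passed the count filter (10 UMIs in 2 sums) through macrophages only. Their calls and their part in the 15 give no support. Other genes that passed through 1 class only, in the pathway or outside it, were not counted. The other genes higher in macrophages were traf4b, traf4a, traf2b, nfkbib, nfkbiaa, tnfaip3, nfkb1, nfkb2, rel, relb and irak3, with log2 differences of 0.50 (nfkb2) to 3.37 (traf4b). Lower were tlr5b by a log2 difference of -1.01, traf7 by -0.74 and unc93b1 by -0.62. Scaled by library totals in place of TMM (the trimmed mean of log ratios), which moved the median of all genes by -0.18, 14.5% of all genes were higher and 20.4% lower. There 13 of the 15 calls remained, without nfkb2 and relb, and ikbke, map3k7, myd88 and nfkbiab joined the lower genes. In fits without 1 library, 12 of the 18 calls remained each time. The lower calls numbered none without the mid label library at 10 dpf.

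Against T and NK/ILC cells, macrophages were higher for 21 and lower for 7 of 46 genes, where 24.1% of all genes were higher and 27.1% lower. In pooled UMIs, tlr5a gave 145 in macrophages and 2 in the lymphoid class, tlr18 gave 120 and 2, and tlr21 gave 55 and 1. With so few lymphoid UMIs, these receptors passed the count filter through macrophages only, so that their calls give no support. The log2 difference was 7.69 for tlr5b, 3.65 for tlr22, 3.58 for tlr8b and 2.29 for unc93b1. The lymphoid class was higher for traf3ip2l, whose mammalian counterpart is an adaptor of interleukin-17 receptors, with 811 UMIs against 3, a ratio of 184 with an interval of 62.9 to 896. It was also higher for the tlr19 feature ENSDARG00000070392 with 55 UMIs against 3, for traf1 and traf2a by log2 differences of 2.01 each as coded macrophage over lymphoid (-2.01), for traf5 (-1.88), for nfkbil1 (-1.29) and for myd88 (-1.15). Both traf3ip2l and this tlr19 feature passed the filter through the lymphoid class only, so that their calls give no support either. Other genes that passed through 1 class only were not counted. Library totals moved the median by -0.33, with 17.2% of all genes higher and 37.0% lower, and kept 17 of the 21 higher and all 7 lower calls. The calls of ikbkb, irak4, traf4a and traf7 were lost there, and ikbke, map3k7, nfkbie, rela and tab2 were added to the lower ones. In fits without 1 library, 22 of the 28 calls remained each time.

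The tlr7 feature ENSDARG00000068812 gave no UMI in larval macrophages, 0 of 22037785 UMIs in 1032 cells. In the crispant libraries at 8 dpf the macrophages held 2 and 3 UMIs untreated (slc24a5, then rag1 crispants) and 12 and 23 with R848, at 0.432, 0.774, 0.274 and 0.890 CPM. All 40 lay in a single small cluster of 144 macrophages (cluster 42), led by the chemokine genes ccl35.1 and ccl19a.1 and the antigen presentation genes cd74a and mhc2a. In adult macrophages tlr7 reached 17.3 CPM in intestine after the early and 49.3 CPM after the late label, 14.6 and 16.9 CPM in thymus, and 0.291 and 1.00 CPM in kidney marrow. It was not seen in TLN, where the libraries allowed up to 4.46 and 11.4 CPM.

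In both adult tissues with high tlr7, the transcript was concentrated in 1 cluster of the macrophage class. In intestine this was a cluster of 191 cells led by BX649442.1, rnaset2l, lgals2a and enpp1, with 108 CPM after the early and 195 CPM after the late label. In thymus it was a cluster of 193 cells that shared those leading genes, with 122 and 151 CPM. The same clusters carried tlr9, the receptor of bacterial DNA, at 146 and 120 CPM in intestine and 339 and 523 CPM in thymus, and unc93b1 at 312 and 448 CPM and at 265 and 221 CPM. Like cluster 42 of the crispant set, these clusters were named macrophages from the marker lists. Whether they hold other cell types, such as dendritic cells, was not tested. Over the 73 class-library points of the larval and crispant sets, the gene whose level was most like that of tlr7 was BX649442.1 (Pearson r = 0.89 of log2(CPM + 5)), followed by si:dkey-30j10.5, dicp1.17, syngr3b and si:ch73-334d15.1. Only 10 of these points, with 49 UMIs in all, had any tlr7, and points of 1 library share its depth. Adult B cells held 42 UMIs of tlr7, or 3.79 CPM over their libraries.

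The other feature with the symbol tlr7, ENSDARG00000075685, showed another pattern. Its CPM was 0.248 to 3.45 in larval macrophages, and 1.08, 0.774, 0.228 and 0.426 in crispant macrophages, slc24a5 and rag1 untreated and then slc24a5 and rag1 with R848. Its highest level in the crispant set was in a cluster of neural cells, with 235, 201, 249 and 121 CPM in the same order. The gene most like it over the class-library points was slit3, a guidance molecule of axons (r = 0.71).

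Of the tlr8 genes, tlr8a was nearly silent in larval macrophages and tlr8b was not. A single UMI of tlr8a was found in larval macrophages, in the mid label library at 10 dpf. Crispant macrophages had 0.649 and 2.58 CPM untreated and 1.92 and 1.39 CPM with R848, again in the order slc24a5, rag1. In adult macrophages tlr8a ran from 3.78 CPM in TLN to 19.0 CPM in thymus. The level of tlr8b in larval macrophages was 10.0 and 4.98 CPM after the early label at 6 and 10 dpf, 2.28 and 6.93 CPM after the mid label, and 31, 10.1 and 6.46 CPM after the late label at 4, 6 and 10 dpf. The late label library at 4 dpf, which held the fewest macrophage UMIs, had a counting interval of 18.4 to 49.0 CPM. It lay above the intervals of 5 of the other libraries and overlapped that of the late label library at 6 dpf (4.35 to 19.8 CPM). Among the other libraries, neighbours in order of level had overlapping intervals. The mid label library at 6 dpf, lowest in tlr8b, also had the lowest summed macrophage markers (686 CPM). The late label library at 4 dpf had the highest (5481 CPM), and whether marker level took part was not tested. In adults tlr8b was highest in thymus macrophages, with 91.9 and 89.6 CPM, and stood at 16.3 to 41.6 CPM in the other tissues.

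**Figure D2:**
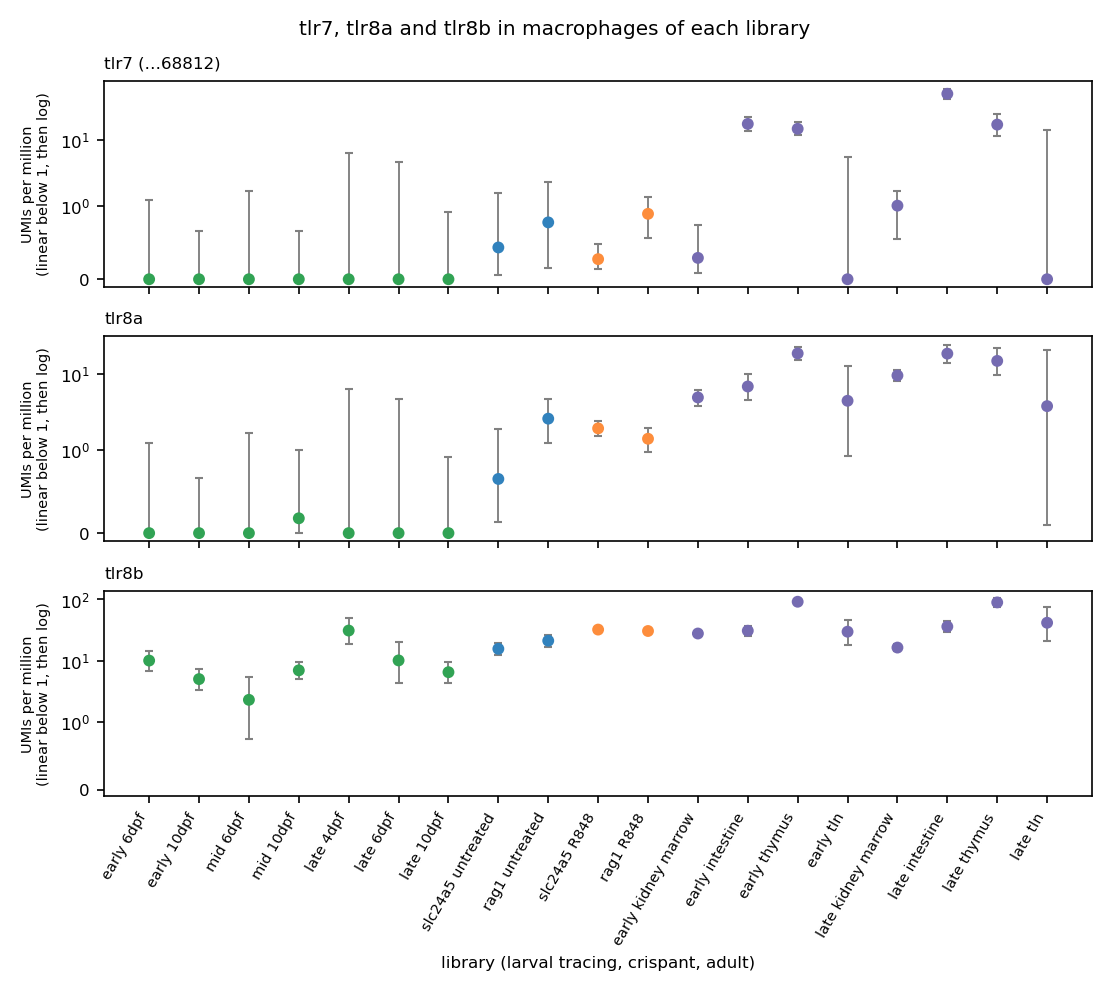
CPM (axis linear below 1 and log above) of tlr7 (ENSDARG00000068812), tlr8a and tlr8b in the macrophages of each library, with bars for the 95% Poisson interval of the count; green marks larval, blue untreated crispant, orange R848 and purple adult libraries. The green tlr7 points all lie at 0, the highest tlr7 points are those of adult intestine and thymus, and tlr8b is above 2 CPM in every library drawn.

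Pooled over libraries, macrophage tlr8b was 6.99 CPM in the larval, 30.1 in the crispant and 35.6 in the adult set, tlr8a was 0.045, 1.70 and 9.81 CPM, and tlr7 was 0, 0.512 and 7.83 CPM. All 3 receptors had their lowest pooled level in the larval set and their highest in the adult set. The sets differed in counting software and, in part, in kit chemistry, age, tissue, genotype and treatment, and most crispant macrophages came from the R848 libraries. Summed macrophage markers were also lower in larval than in crispant macrophages, 686 to 5481 against 6793 to 18104 CPM. These differences cannot be told apart, so no test was run. The gene most like tlr8b over the class-library points was arhgap22 (r = 0.92), followed by ccl35.2, zgc:136870, tlr1 and fam49al, so that tlr1 was the nearest of the other receptors.

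The wider receptor repertoire of the adults showed further classes. B cells, which no larval or crispant cluster was named for, carried tlr9 at 15.9 to 26.8 CPM in 5 libraries, the tlr19 feature ENSDARG00000070392 at 12.4 to 57.1 CPM, tlr20.2 at 4.49 to 40.8 CPM, and tlr8b at 13.2 CPM pooled. The values of 57.1 and 40.8 CPM rest on few UMIs. They come from intestine after the early label, with 27 B cells and 122643 UMIs. In thymus B cells that tlr19 feature had 19.1 and 37.4 CPM and tlr20.2 4.49 and 12.0 CPM after the early and late label. Adult neutrophils carried tlr5b at 23.7 to 746 CPM, tlr5a at 13.6 to 46.9 CPM and tlr22 at 27.5 to 93.7 CPM. Adult macrophages had tlr22 at 28 to 92.1 CPM, tlr1 at 6.11 to 32.5 CPM and tlr21 at 7.52 to 22.7 CPM. The larval macrophage receptor tlr18 was at 0 to 3.14 CPM there, with 33 UMIs in all 8 libraries.

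With R848, macrophages had more mRNA of the chaperone of endosomal receptors and of the adaptor tirap on both scalings used. They had less of traf4a and the inhibitors nfkbiaa and nfkbib, again on both. The gene traf3ip2l was called lower on both as well, at levels near the floor in these cells. IRAK kinases and further inhibitors were called lower on TMM scaling alone. The comparison asks how the pathway responds to an agonist of its own receptors. It used the 4 crispant libraries in edgeR's quasi-likelihood test on UMI sums, with genotype as a term, so that the 2 genotypes serve as the replicates (1 residual degree of freedom) and R848 by genotype could not be tested. Nothing states that libraries of 1 treatment came from separate spawns or days, and the p-values measure the spread between these libraries only. Of 52 genes of the pathway tested, 4 were higher and 12 lower, while 15.0% of all 15608 genes were higher and 13.5% lower. The median log2 difference of the 52 was -0.40, against 0.09 over all genes.

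This comparison depended on the scaling. With library totals in place of TMM the median of all genes moved by 0.47, 28.9% of all genes were higher and 6.43% lower, and of the 52 pathway genes 8 were higher and 4 lower. All 4 higher calls remained, and of the 12 lower ones traf4a, traf3ip2l, nfkbib and nfkbiaa did. The other 8 lower calls are relative to the typical gene of these cells. The macrophages themselves were more numerous with R848, 248 and 232 cells untreated against 2098 and 1270 treated, or 3.31% and 5.40% against 19.9% and 15.3% of blood cells, and their summed markers rose from 6793 and 10290 to 18104 and 17766 CPM. Whether these shifts in numbers and markers took part in the results was not tested.

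In what follows, 4 CPM values are those of slc24a5 and rag1 crispants without treatment and then of slc24a5 and rag1 crispants with R848. The chaperone unc93b1 had 15.1, 18.1, 41.8 and 54.0 CPM, so that both treated libraries lay above both untreated ones (log2 difference 1.05, SE 0.225, adjusted p = 0.0052). The bridging adaptor tirap, which links Myd88 to receptors at membranes, had 3.68, 2.06, 11.3 and 12.1 CPM (1.55, SE 0.378, adjusted p = 0.010). The receptor tlr2, of bacterial lipopeptides, had 0.865, 1.55, 3.35 and 6.35 CPM (1.53, SE 0.485, adjusted p = 0.036). In each of the 3, the groups did not overlap. Neither here nor below was the share of all genes with such a separation counted. It gives no support beyond the calls, which rest on the same 4 libraries. The gene traf3ip1, of intraflagellar transport, which only bears a TRAF name, had 0.865, 1.29, 4.93 and 5.88 CPM (1.87, SE 0.481, adjusted p = 0.014). Both tlr2 and traf3ip1 had fewer than 10 UMIs in each untreated library and passed the count filter (10 UMIs in 2 libraries) through the treated ones only, as did 8 pathway genes without a call, so that neither counts as support for the higher calls.

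The steepest fall was that of traf4a, with 27.7 and 28.1 CPM untreated and 6.41 and 5.69 CPM treated (log2 difference -2.67, SE 0.247, adjusted p = 3.5e-05). The untreated levels were alike and the treated ones far below them. The adaptor-like gene traf3ip2l had 2.38, 2.84, 0.547 and 0.697 CPM (-2.53, SE 0.684, adjusted p = 0.017). It was near the floor here, and larval macrophages held 3 UMIs of it against 811 in T and NK/ILC cells. It was lower with R848 in T and NK/ILC cells too. Whether its few macrophage UMIs came from that class was not tested. Among the inhibitors, nfkbib had 5.40, 3.87, 1.03 and 1.2 CPM (-2.53, SE 0.505, adjusted p = 0.0035), and nfkbiaa had 357, 284, 140 and 149 CPM (-1.62, SE 0.201, adjusted p = 0.00021). The treated libraries of these 4 genes lay below the untreated ones on either scaling.

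The other 8 lower genes were called on TMM scaling alone. Their CPM, which is per library total, was lower in both treated libraries as well, without a call on that scaling. Of the inhibitors, nfkbiab had 563, 440, 357 and 384 CPM (-0.90, SE 0.190, adjusted p = 0.0048), and tnfaip3, which encodes the deubiquitinase A20, had 78.9, 68.4, 54.5 and 60.4 CPM (-0.83, SE 0.211, adjusted p = 0.013). Groups did not overlap for either gene. The kinase irak1 had 20.1, 14.2, 10.1 and 10.7 CPM (-1.19, SE 0.272, adjusted p = 0.0074), its partner irak4 had 15.3, 11.3, 9.12 and 10.2 CPM (-0.94, SE 0.288, adjusted p = 0.031), and irak3, which restrains signalling in mammals, had 34.8, 32.0, 17.9 and 28.9 CPM (-1.03, SE 0.252, adjusted p = 0.011). In irak3 the treated rag1 library lay close to the untreated ones, so that most of the fall came from the treated slc24a5 library. The subunit rel had 87.3, 93.1, 64.2 and 71.7 CPM (-0.88, SE 0.202, adjusted p = 0.0075), the Trif adaptor gene ticam1 had 24.2, 24.0, 18.2 and 20.6 CPM (-0.79, SE 0.227, adjusted p = 0.024), and tlr18 had 9.08, 11.3, 7.23 and 7.24 CPM (-0.96, SE 0.301, adjusted p = 0.034). Differences in CPM were small in these 3.

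**Figure D3:**
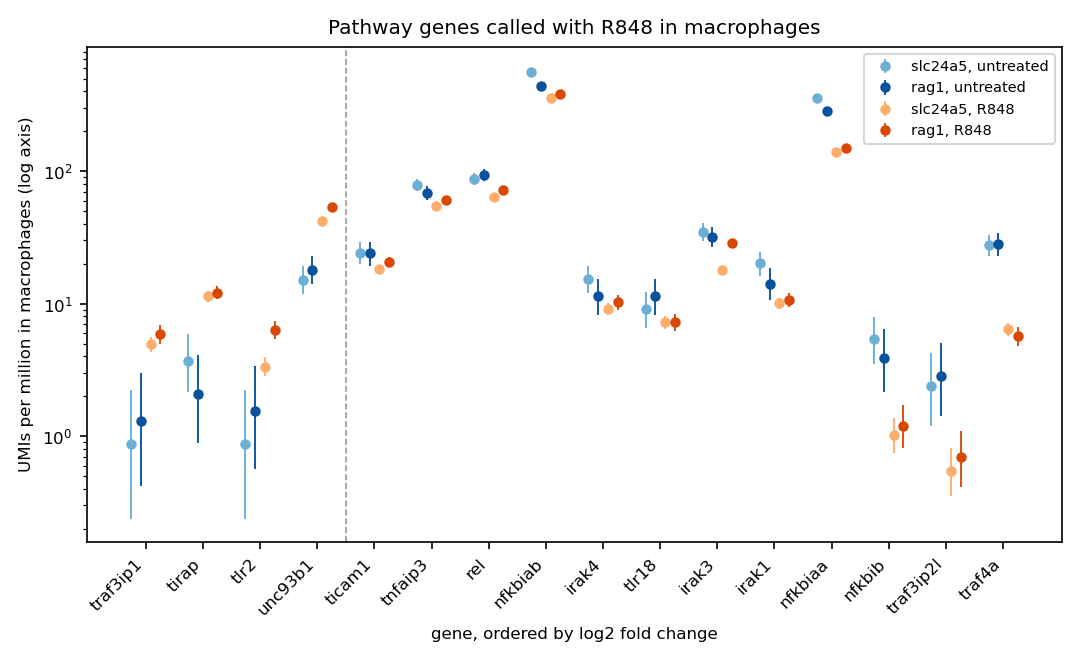
CPM (log axis) in macrophages of the 4 crispant libraries for the 16 genes called, ordered by log2 difference, with blue points for untreated and orange points for R848 libraries and bars for the 95% Poisson interval of the count. Orange lies above blue for traf3ip1, tirap, tlr2 and unc93b1 and below it for the other 12, with the widest gap at traf4a (28.1 and 27.7 CPM against 6.41 and 5.69).

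By role, the lower calls on TMM scaling, at 13.5% of all genes, comprised 4 of 7 inhibitors, 3 of 4 IRAK features and 2 of 11 TRAF features. They also held 1 of 5 subunits, 1 of 5 adaptors or chaperones and 1 of 14 receptors tested. On library totals, at 6.43% of all genes, 2 of 7 inhibitors and 2 of 11 TRAF features were lower and no gene of another role. Higher there, at 28.9% of all genes, were 4 of 14 receptors, 3 of 5 adaptors or chaperones and 1 of 11 TRAF features. None of the 6 TAK1 and IKK genes was called in either direction. The abundant inhibitor nfkbie had no call, with 235, 212, 289 and 323 CPM (log2 difference -0.02, adjusted p = 0.96), nor did traf2b, among the 5 most abundant of the pathway in untreated macrophages, with 128, 113, 106 and 120 CPM (-0.56, adjusted p = 0.06). The 8 receptors left untested had too few UMIs. The calls held unevenly when 1 library was left out, with genotype dropped from the fit to keep a degree of freedom: unc93b1, traf4a and nfkbiaa kept theirs in all 4 such fits. Without treated slc24a5 there was 1 higher and 2 lower calls, without treated rag1 2 and 3, without untreated slc24a5 4 and 12, and without untreated rag1 3 and 16.

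The receptors of R848 themselves had no call on TMM scaling. The level of tlr8b was 15.6, 21.2, 32.2 and 30.5 CPM, with both treated libraries above both untreated ones (log2 difference 0.32, SE 0.238, adjusted p = 0.36), and library totals gave 0.79 (adjusted p = 0.026). For tlr7 (ENSDARG00000068812) the difference was -0.62 (adjusted p = 0.70) on 5 untreated and 35 treated UMIs, and for tlr8a it was -0.31 (adjusted p = 0.79). The counts of tlr7 were too low to tell a change from none. For tlr8a, on 3 and 10 UMIs untreated and 84 and 36 treated, the genotypes moved in opposite directions. It went from 0.649 to 1.92 CPM in slc24a5 and from 2.58 to 1.39 CPM in rag1 crispants, a difference that could not be tested. On library totals, tlr5b, tlr1 and myd88 were also higher, at 22.1, 23.5, 35.2 and 39.5 CPM for tlr5b and 13.4, 14.7, 23.7 and 22.4 CPM for myd88.

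Macrophages fell into 6 clusters, 3 of which had enough cells in each library to be fitted. In cluster 8 (54 and 70 cells untreated, 745 and 406 treated) 4 genes of the pathway were higher and 6 lower of 44, at 13.7% and 14.3% of all genes. They included unc93b1 with 14.4, 15.5, 48.0 and 59.1 CPM (log2 difference 1.44) and tirap (2.03) among the higher, and traf4a (-2.16) and nfkbiaa (-1.53) among the lower. In cluster 17 (98 and 58 cells, then 499 and 235) 1 was higher and 15 lower of 41, at 10.4% and 10.7% of all genes, with traf4a (-2.86), nfkbiaa (-2.0) and irak1 (-1.83) among the lower. There unc93b1 had 9.21, 12.2, 22.4 and 20.1 CPM (0.47, adjusted p = 0.29). In cluster 30 (69 and 78 cells, then 189 and 65) 2 of 27 were higher, unc93b1 (1.76) and ikbke (3.23), and none lower by edgeR, at 6.91% and 3.51% of all genes.

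Of these 3 clusters, cluster 17 had the lowest level of tlr8b in each library. It was 7.44, 12.8, 17.5 and 12.1 CPM in cluster 17, 26.5, 23.6, 39.6 and 39.2 CPM in cluster 8 (log2 difference 0.25, adjusted p = 0.62) and 30.2, 27.6, 103 and 76.8 CPM in cluster 30 (1.29, adjusted p = 0.11). The clusters that held few untreated cells were high in it with R848, with 47.8 and 46.1 CPM in cluster 23 and 64.4 and 64.6 CPM in cluster 42. Cluster 23 grew from 11 and 10 cells to 310 and 351, cluster 27, of cycling cells, from 2 and 3 to 282 and 169, and cluster 42 from 14 and 13 to 73 and 44.

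In the T and NK/ILC class as a whole tlr8b, both tlr19 features, unc93b1 and tirap were called higher with R848, and traf3ip2l and irak4 lower. Once cluster 11 of the class, described below, was left out, tlr8b and the tlr19 feature ENSDARG00000026663 had too few UMIs to be tested. The other higher genes kept their direction in edgeR's test there without a call. These were tirap (log2 difference 1.27, adjusted p = 0.066), tlr19 ENSDARG00000070392 (1.64, adjusted p = 0.060) and unc93b1 (0.66, adjusted p = 0.17). That cluster made up a larger share of the class with R848. The calls of traf3ip2l and irak4 remained without it. Of 47 pathway genes tested 11 were higher and 7 lower, at 15.2% and 11.7% of all genes. The receptors tlr2, tlr20.2, tlr20.3, tlr22 and tlr5b, 5 of the 11 higher, had fewer than 10 UMIs in each untreated library. They passed the count filter through the treated libraries only, so that the number of receptors called gives no support. The other 3 receptors called were tlr8b and both tlr19 features, out of 5 whose test did not rest on the treated libraries alone, and 11 receptors had too few UMIs to be tested. The median log2 difference was 0.11, against 0.01 over all genes. On library totals, which moved the median by 0.18, 20% of all genes were higher and 4.66% lower, and 15 pathway genes were higher and 2 lower, with all 11 higher calls kept and myd88, nfkbiaa, nfkbiab and traf1 added. These calls rested on all 4 libraries. No one of the 18 was kept in every fit without 1 library, and without the treated rag1 library no pathway gene was called (higher and lower calls numbered 1 and 1 without untreated slc24a5, 4 and 2 without untreated rag1, and 1 and 0 without treated slc24a5). The log2 difference had the same sign in every such fit that tested the gene.

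The fish receptor tlr20.2 had 0.0874, 0.330, 1.81 and 2.56 CPM (log2 difference 3.24), on 1 and 3 UMIs untreated and 31 and 32 treated. Like tlr20.3 below, it passed the count filter through the treated libraries only, so that its rise gives no support. The tlr19 feature ENSDARG00000070392 had 1.14, 1.54, 6.83 and 13.3 CPM (2.68, SE 0.30, adjusted p = 6e-07), and ENSDARG00000026663 had 0.612, 1.1, 3.33 and 5.69 CPM (2.21, adjusted p = 0.00021). Their treated libraries all lay above the untreated ones. The tlr20.3 feature ENSDARG00000092668 gave 0 of 20529461 UMIs untreated and 32 of 29622680 treated, at least 7.39-fold higher if 3 UMIs over the group are taken as the limit of a count of 0.

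The R848 receptor tlr8b was higher in the whole class as well, with 2.01, 3.85, 9.51 and 13.5 CPM (1.83, SE 0.251, adjusted p = 9.5e-06). The chaperone unc93b1 had 4.19, 5.72, 9.57 and 14.6 CPM (1.09, adjusted p = 0.00083) and tirap 1.66, 0.990, 3.38 and 3.93 CPM (1.25, adjusted p = 0.019). Groups did not overlap for any of them. The remaining higher genes were tlr2 (2.36), tlr22 (1.60), tlr5b (1.54) and traf3ip1 (0.88). The lower genes were traf3ip2l, with 43.4, 82.3, 27.7 and 23.2 CPM (-1.41, SE 0.191, adjusted p = 7.8e-06), irak4 (-0.77), rela (-0.65), tab2 (-0.58), traf6 (-0.55), ticam1 (-0.49) and traf7 (-0.46). On library totals traf3ip2l and irak4 remained lower.

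Most receptor UMIs of the class came from 1 cluster of it. Cluster 11, led by eomesa, a transcription factor of natural killer and T cells, mrtfaa, csf2rb, sftpba, fcer1g and flt3, held 84.7% to 97.1% of the tlr8b UMIs of the class in the 4 libraries and 93.5% to 100% of those of tlr20.2. It held 94.4% to 100% of the UMIs of tlr19 ENSDARG00000026663, 53.8% to 90.4% of those of ENSDARG00000070392 and 39.6% to 78% of those of unc93b1. Some of its leading genes, such as flt3, are also known from dendritic cells, and its name rests on 8 T and NK/ILC markers. In that naming the dendritic marker list scored second. Whether the cluster holds dendritic cells was not tested. The cluster made up 4.78% (75 of 1570 cells) and 11% (104 of 942) of the class untreated and 16.2% (461 of 2839) and 26.0% (423 of 1624) with R848.

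Within cluster 11, tlr8b was 41.2 and 46.5 CPM untreated and 64.6 and 66.3 CPM treated (log2 difference 0.35, adjusted p = 0.51), and tlr19 ENSDARG00000070392 was 14.4, 15.1, 42.6 and 62.6 CPM (1.64). Of 37 pathway genes 2 were higher, that tlr19 feature and tlr20.3, and none lower by edgeR, at 6.30% and 4.80% of all genes. With 0 UMIs in both untreated libraries, tlr20.3 entered the test through the treated ones only, so that its call gives no support. With cluster 11 left out of the class, 2 of 40 pathway genes were higher and 6 lower, at 12.2% and 9.01% of all genes. The lower ones were irak4, rela, tab2, ticam1, traf3ip2l and traf6. The higher ones were tlr22 (1.69) and tlr5b (1.66). Even in the whole class the untreated libraries held only 6 and 8 UMIs of tlr22 and 8 and 5 of tlr5b. Both genes passed the count filter through the treated libraries only, so that neither call gives support. The summed macrophage markers in the class were 138 and 121 CPM untreated and 388 and 278 CPM treated, and their part in the results was not tested. Per 1000 macrophage marker UMIs, tlr8b gave 14.6 to 48.4 UMIs in the T and NK/ILC class and 1.72 to 2.29 in macrophages, while tlr5b gave 4.53 to 6.76 in the class, 1.94 to 3.25 in macrophages and 59.4 to 93.5 in neutrophils. Macrophage clusters differed in tlr8b, and the source of these UMIs in the class was not tested.

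**Figure D4:**
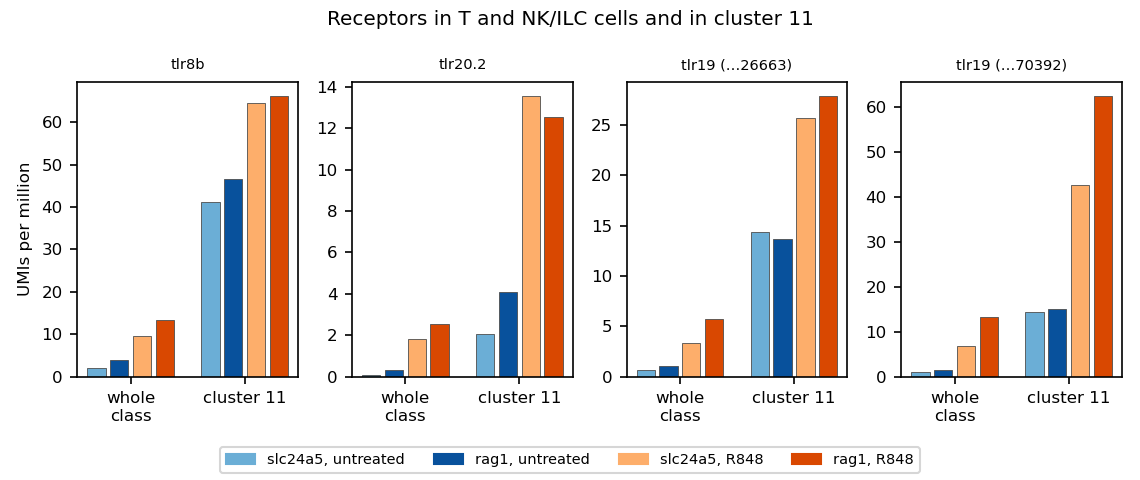
CPM of tlr8b, tlr20.2 and both tlr19 features in the 4 crispant libraries, in the whole T and NK/ILC class and in its cluster 11 alone; each bar is 1 library, blue untreated and orange R848. For tlr8b the orange bars are far taller than the blue ones in the whole class (9.51 and 13.5 against 2.01 and 3.85 CPM) and closer to them within cluster 11 (64.6 and 66.3 against 41.2 and 46.5 CPM).

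Macrophages and T and NK/ILC cells differed in their response for 11 pathway genes. The difference itself was tested in 1 fit over the 8 sums of both classes with library as a block (1 residual degree of freedom), a test added after the data were seen. Of 56 pathway genes none responded more in macrophages and 11 responded less or fell more, at 11.3% and 10.4% of all genes. The differences of responses, in log2 units as macrophage minus T and NK/ILC, were -2.34 (SE 0.324) for traf4a and -1.83 (SE 0.210) for nfkbiaa. Those of tlr18, -2.46 (SE 0.890), and nfkbib, -2.42 (SE 0.903), rest on few UMIs in T and NK/ILC cells, 1, 2, 9 and 6 for tlr18 and 6, 5, 7 and 11 for nfkbib, too few for either gene to be tested in that class by itself. Those of tlr8b and tlr22 were -1.47 (SE 0.343) and -1.39 (SE 0.506), and those of irak3, nfkbiab, irak1, tnfaip3 and traf2b ran from -1.24 to -0.69. On library totals, with 16.2% of all genes higher and 6.46% lower and a median moved by 0.22, irak3, nfkbiaa, nfkbiab, tlr8b and traf4a remained lower, traf7 was higher, and irak1, nfkbib, tlr18, tlr22, tnfaip3 and traf2b lost the call. With cluster 11 left out, irak1 (adjusted p = 0.064) and tlr8b (-1.99, adjusted p = 0.051) lost the call and tlr5b gained it. The 4 genes irak3, nfkbiaa, nfkbiab and traf4a were called in all 3 settings.

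The clearest case of this was nfkbiaa, the alpha-type IkB. It was lower with R848 in macrophages on both scalings. In the T and NK/ILC class it was higher on library totals and had no call on TMM scaling.

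**Figure D5:**
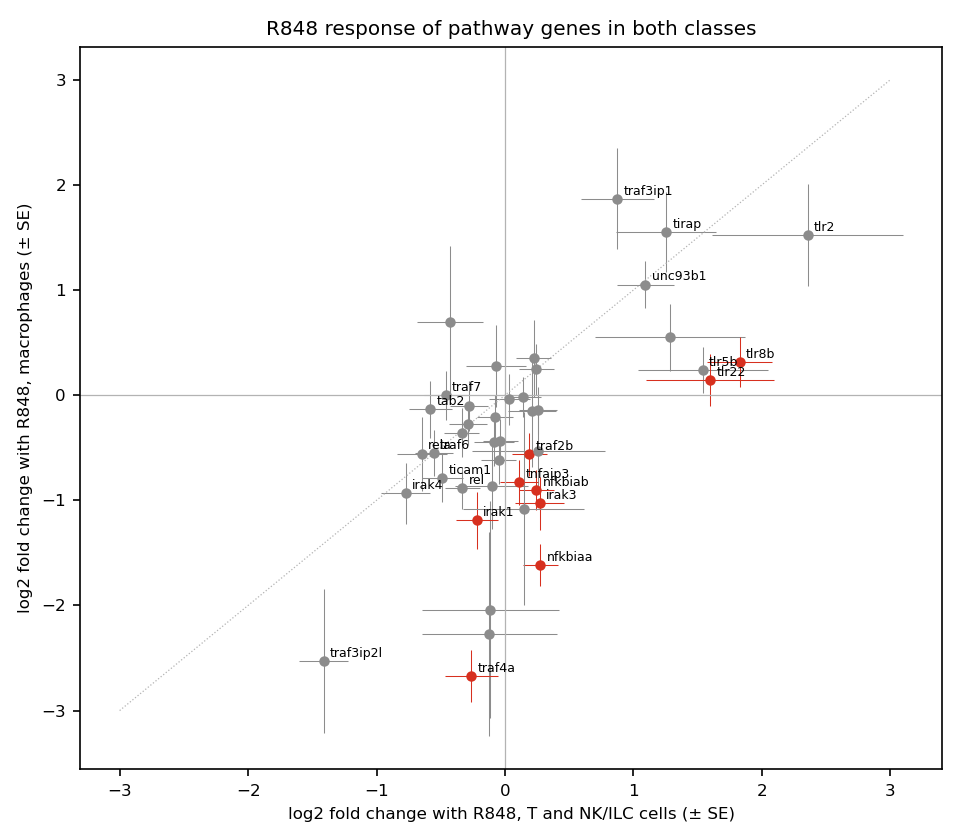
Log2 difference with R848 in T and NK/ILC cells (x axis) against that in macrophages (y axis) for the 43 genes tested in both, with red points for the 9 whose difference between classes was called; bars are standard errors and the diagonal marks equal responses. The red points, among them traf4a, nfkbiaa and tlr8b, all lie below the diagonal.

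Neutrophils, which carried much tlr5b and unc93b1, gave no call on TMM scaling. Of 37 pathway genes tested edgeR called 0 in either direction, where 6.76% of all genes were higher and 2.39% lower. An unadjusted p under 0.05 was found for 8 of the 37, and for 2943 of all 11653 genes tested. The closest were nfkbie, with 204, 201, 255 and 262 CPM (log2 difference 0.47, adjusted p = 0.07), and irak1, with 15.8, 10.7, 6.47 and 6.87 CPM (-0.86, adjusted p = 0.077). On library totals, with 6.48% of all genes higher and 6.90% lower, irak1, map3k7, nfkb2, traf2a and traf6 were lower.

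In the 3 remaining classes the genes called were mostly inhibitors and subunits, and all but 1 were higher. In erythroid cells 9 of 36 were higher, at 7.70% of all genes (5.55% were lower), among them nfkbiaa with 5.96, 4.02, 10.5 and 9.32 CPM (log2 difference 1.00), nfkbie with 7.36, 4.16, 13.8 and 11.9 CPM (1.17) and nfkbiab with 102, 107, 133 and 166 CPM (0.52). The others were nfkb1, nfkb2, rel, traf1, irak3 and tlr5b, of which irak3 and tlr5b stayed below 1 CPM in every library. On library totals, with 7.15% of all genes higher and 5.74% lower, rel and traf1 lost the call. In thrombocytes 5 of 25 were higher, at 3.85% of all genes (1.37% were lower). They were nfkbiaa with 30.1, 7.46, 95.1 and 59.8 CPM (2.1), traf3 with 38.2, 24.9, 71.4 and 86.0 CPM (1.35), nfkbie (0.73), nfkbiab (0.73) and myd88 with 101, 109, 140 and 184 CPM (0.65). In each of these genes given with CPM, both treated libraries lay above both untreated ones.

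In HSPCs, nfkbie had 77.2, 55.1, 118 and 136 CPM (0.85) and tirap was higher too (1.19), while nfkb2 was lower with 23.9, 27.9, 19.0 and 16.9 CPM (-0.63). These 3 were the calls among 40, at 6.98% of all genes higher and 2.29% lower. Library totals gave 8.01% and 1.07%, and there nfkbie alone remained called in HSPCs. The inhibitor nfkbie was thus called higher in erythroid cells, thrombocytes and HSPCs and had no call in macrophages, T and NK/ILC cells or neutrophils; differences in its response between the former classes and the latter were not tested. The summed macrophage markers moved from 18.1 and 13.4 to 292 and 169 CPM in erythroid cells, from 31.2 and 19.9 to 408 and 156 CPM in thrombocytes and from 139 and 123 to 303 and 284 CPM in HSPCs, and their part in these calls was not tested. Fits without 1 library kept 1 of these 17 calls every time, that of nfkbiaa in thrombocytes. Without treated slc24a5 or treated rag1 no pathway gene was called in erythroid cells or HSPCs.

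Genes around the pathway were taken from 3 further lists. In macrophages the interferon arm had 13 higher and 1 lower of 29 tested, where 15.0% of all genes were higher and 13.5% lower. Its median log2 difference was 1.00, against 0.09 over all genes. On library totals 17 were higher and 1 lower, at 28.9% and 6.43% of all genes. The antiviral gene mxc had 7.78, 3.10, 112 and 105 CPM (log2 difference 3.87), and the immunoproteasome genes psmb8a and psmb9a rose by 3.36 and 2.87, psmb8a from 7.13 and 10.6 to 124 and 124 CPM. The only lower gene was sting1 (-1.73), the adaptor of cytosolic DNA sensing. Of the 13 higher genes, 3 passed the count filter through the treated libraries only. In other classes 15 of 27 were higher in T and NK/ILC cells, where 15.2% of all genes were, 10 of 22 in neutrophils (6.76%), 21 of 28 in erythroid cells (7.70%) and 4 of 11 in thrombocytes (3.85%), with none lower by edgeR. In HSPCs 4 were higher (6.98% of all genes) and 1 lower of 23, and the list's median log2 difference of 0.048 lay close to that of all genes, -0.0094.

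On library totals 9 of the NF-kB and AP-1 response genes were higher and 12 lower in macrophages, at 28.9% and 6.43% of all genes. On TMM scaling 9 were higher and 19 lower of 36 tested, at 15.0% and 13.5% of all genes, with a median of -0.92. The higher ones included the cytokines il6, with 1 UMI untreated and 360 treated (a ratio of 43.9 per total, counting interval 7.83 to 1740), il10, with 1 and 147 UMIs (17.9, 3.17 to 713), and il12ba, with 3 and 232 UMIs (9.43, 3.19 to 46.1). These 3 are among 4 of the 9 higher genes that passed the count filter through the treated libraries only. The acute phase gene saa had 1.3, 12.9, 81.1 and 53.2 CPM (log2 difference 2.97). The 19 lower genes included the cytokine genes tnfa, with 81.3, 74.3, 23.3 and 18.7 CPM (-2.36), cxcl8a, which fell by 2.03, and il1b, which fell by 1.21 on the log2 scale; these 3 were singled out after their values were seen. In T and NK/ILC cells the list had 14 higher and 5 lower of 32, at 15.2% and 11.7% of all genes.

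Of the kinases, ubiquitin enzymes and regulators, 9 were higher and 4 lower of 40 in T and NK/ILC cells, at 15.2% and 11.7% of all genes. In macrophages 7 were higher and 8 lower of 39, at 15.0% and 13.5% of all genes. On library totals the macrophage counts were 15 and 4, at 28.9% and 6.43% of all genes. The chaperone hsp90b1, which folds Toll-like receptors, had 274, 152, 759 and 748 CPM (1.41). Its partner cnpy3, singled out after its values were seen, had 57.1, 40.2, 135 and 151 CPM (1.1). The ubiquitin ligase gene peli1b had 40.2, 48.7, 20.4 and 18.7 CPM (-1.65), peli1a fell by 1.29 and the protease gene malt1 had 34.8, 31.2, 20.5 and 14.9 CPM (-1.38).

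Label timing and genotype were compared without a test, since each group had 1 library, and a gene was counted when it passed 2-fold the same way in all pairs (in at least 3 of 4 for adults). Between late and early label in larval macrophages, 1 of 22 pathway genes passed, where 2.02% of all genes did. It was traf1, with 29.0 CPM after the early and 6.29 CPM after the late label at 6 dpf and 32.7 and 13.2 CPM at 10 dpf. With libraries thinned to equal totals none of the 9 genes that could be counted passed. In larval T and NK/ILC cells 0 of 28 passed (2.34% of all genes). None passed in adult macrophages (0 of 26, 0.545%), in adult T and NK/ILC cells (0 of 26, 0.455%), or between rag1 and slc24a5 crispants in macrophages (0 of 28, 0.0171%) and T and NK/ILC cells (0 of 32, 0.484%).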

How the data were processed

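The deposited matrices hold raw UMI counts per gene and barcode, made by the authors with Cell Ranger, per the file headers version 7.1.0 (early and mid larval), 7.0.1 (late larval), 8.0.1 (crispant) and 9.0.0 (adult), on GRCz11 per the submitters' processing notes. Per the labels, chemistry was version 3.1 for larval tracing and version 4 for the other libraries.

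Cells needed at least 500 UMIs, 200 genes and at most 20% mitochondrial UMIs (0.471% of barcodes failed), and 7.21% were left out by a doublet score, re-implemented after Scrublet. Clustering was separate for the larval libraries, the crispant libraries and every adult tissue, on 2000 variable genes, without the 60 genes described, by Leiden (leidenalg 0.10.2, igraph 0.11.9, Python 3.11.15); clusters were named from marker lists. UMIs were summed per class and library. Tests were edgeR 4.0.16 (quasi-likelihood, TMM, R 4.3.3), on genes with at least 10 UMIs in at least 2 libraries. DESeq2 1.42.0, other scalings, filters, cell sets, thinning and fits without 1 library were alternatives. Scaling by library totals, the difference between classes, the fits per cluster and leaving out cluster 11 were chosen after seeing the data. The fit was tested on simulated data. Without a test, log2 ratios of CPM + 5 were counted for genes with at least 50 UMIs in the higher library. Intervals and limits (3 UMIs for a count of 0) are at the 95% level and cover counting error only.

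The genes, marker lists and pathway lists were chosen with earlier results of these data known. Values per library are given for tlr7, tlr8a and tlr8b, for genes of the pathway called in macrophages under R848 and for the 5 most abundant there. From each other list up to 4 called genes with the largest change are named, and 5 genes most like tlr7 by Pearson correlation. No sequences or coordinates were used here. Of the 60 names, 52 are the same in the reference table, 7 differ and 1 (tlr8a) was not matched.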

Additional observations from a re-analysis of the deposited data

Results flagged for a closer look

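For 11 pathway genes the response to R848 differed between macrophages and T and NK/ILC cells in a test of the difference itself (edgeR quasi-likelihood over 8 sums). In log2 units, macrophages minus T and NK/ILC cells, the differences were -2.46 for tlr18, -2.42 for nfkbib, -2.34 for traf4a, -1.83 for nfkbiaa, -1.47 for tlr8b, -1.39 for tlr22, -1.24 for irak3, -1.08 for nfkbiab, -0.91 for irak1, -0.87 for tnfaip3 and -0.69 for traf2b. On library totals irak1, nfkbib, tlr18, tlr22, tnfaip3 and traf2b lost the call, and with cluster 11 left out irak1 and tlr8b did. The values of tlr18 and nfkbib rest on 1 to 11 UMIs per library in T and NK/ILC cells.

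In 2 further cases the genotypes moved in opposite directions with R848 and the 95% counting interval of each ratio left out no change. They were picked by this rule from the 60 genes in each class fitted. The share of all genes that meet it was not counted, and the difference between genotypes was not tested. Other genes moved in opposite directions without meeting the rule, such as tlr8a in macrophages. In neutrophils tlr5b changed by 0.31 (log2 ratio of CPM + 5) in slc24a5 and by -0.23 in rag1 crispants. In erythroid cells tab1 changed by -0.30 in slc24a5 and by 0.24 in rag1 crispants.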

How the results depend on the processing

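No paired analysis was possible because each group held 1 library, so that no groups shared replicate numbers; genotype (for R848) and library (between classes) were already terms of the fits. In macrophages under R848, DESeq2 called 2856 genes and 2 higher pathway genes, and library totals gave 8 higher and 4 lower ones. In T and NK/ILC cells, DESeq2 called 1253 genes with 3 higher and 1 lower of the pathway, library totals left 2 lower, and leaving out cluster 11 left 2 higher. Those 2, tlr22 and tlr5b, passed the count filter through the treated libraries only. In neutrophils no filter on low counts gave 1620 genes and 1 higher, and library totals 5 lower. In HSPCs DESeq2 size factors and library totals each left 1 higher and 0 lower. In thrombocytes no filter left 3 higher. Macrophages against neutrophils had 7 lower on library totals and 10 with the untreated crispant libraries added, and macrophages against T and NK/ILC cells 12 lower on library totals. The difference between classes gave 1 higher and 5 lower on library totals. Fitted changes in macrophages past 2-fold, whatever their p, numbered 5 higher and 10 lower of 52, against 3371 and 2072 of all 15608 genes. Past 1.5-fold they numbered 6 higher and 20 lower, against 5044 and 3761 of all genes. Thinning left 0 for label timing in larval macrophages.

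Leaving out 1 library, the genes called and the pathway genes higher and lower ranged over 1747 to 5666, 1 to 4 and 2 to 16 in macrophages, 36 to 1095, 0 to 4 and 0 to 2 in T and NK/ILC cells, 580 to 1542, 0 to 1 and 0 to 2 in neutrophils, 238 to 916, 0 to 4 and 0 in erythroid cells, 0 to 1675, 0 to 3 and 0 to 1 in HSPCs, and 103 to 357, 1 to 6 and 0 in thrombocytes. Against neutrophils they were 3128 to 3916, 13 to 16 and 0 to 4, and against T and NK/ILC cells 5359 to 6901, 18 to 21 and 5 to 9. The sign turned for tlr8a in macrophages (0.15 on library totals, -1.03 to 0.87 without 1 library, with 0.87 for the fit without untreated rag1) and for ENSDARG00000075685 in T and NK/ILC cells (0.062 on library totals, -0.28 to 0.049 without 1 library, with 0.041 without untreated rag1 and 0.049 without treated slc24a5), none of them called. The cause of these changes was not tested. Of the single-gene values followed under the other alternatives, 530 kept direction and call (or stayed within their interval), 73 lost the call and 1 (tlr8b in macrophages on library totals, 0.79) gained one. The alternatives differed in this: with DESeq2 20 values were kept and 19 lost the call, and on library totals 86 were kept and 29 lost it. Genes not followed there that gained a call on library totals are named in the report. Shares of cells with a tlr8b UMI, not used in the report, moved in 18 cases when cells were thinned to 500 UMIs. Depth limits tlr7 and tlr8a in larval, untreated crispant and adult TLN macrophages, with at most 10 UMIs of either per library.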
